A study of Mus musculus with 8 samples.

Results

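The 9 genes described here make, clear, carry and read retinoic acid: Rdh10, Aldh1a2, Dhrs3, Cyp26a1, Crabp1, Crabp2, Rara, Rarb and Rarg. They were chosen as a list of symbols, matched to gene identifiers through the GENCODE vM1 annotation, and are 9 of the 37620 genes in the count files. RNA-seq counts were compared across 8 libraries in 5 groups, from a study that models how signals set the state of mouse pluripotent stem cells. Values are given as CPM, a gene's counts scaled to an equal total of reverse-strand gene counts in every library.

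R1, a line of mouse embryonic stem cells (mESCs), was the source of 7 of the 8 libraries, and each group is therefore a single line. The series text describes medium with serum and no feeder cells for the pluripotent cells, without naming the lines. The 2i group (1 library, day 5) received CHIR99021, a GSK3 inhibitor, at 3.0 µM and PD0325901, a MEK inhibitor, at 1.0 µM. The 2iJ group (1 library, day 5) received these plus a JAK inhibitor at 2.0 µM. The 2iJ+B-A group (3 libraries, days 2, 5 and 11) received in addition BMP4 at 10.0 ng/ml and ALK5 inhibitor II at 10.0 µM, which blocks Activin/Nodal receptor signalling. The sorted group (1 library, day 2) was the GFP-positive fraction of a different line, a Cdx2-GFP reporter, under the 2iJ+B-A additions, so line and sort cannot be told apart from each other. Mesoderm progenitors (2 libraries, days 3 and 4) came from R1 embryoid bodies that were re-aggregated with BMP4, Activin A and Wnt3a. Their medium is listed with commercial supplements, whose retinoid content is not stated, and without serum. Cell type, medium and embryoid body culture therefore cannot be told apart when mesoderm is compared with mESCs. The day 4 mesoderm library followed a day with IWP-2, an inhibitor of Wnt secretion, so day and treatment changed together. No label names retinoic acid or a blocker of its receptors as an addition to any group, and retinoids in the media were not measured. The days within a group were its only replicates, so the p-values measure a spread that includes change over days.

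Retinoic acid is made from vitamin A in a pair of oxidation steps: retinol to retinal, for which RDH10 is the main embryonic enzyme, and retinal to retinoic acid, which ALDH1A2 carries out in early mesoderm. DHRS3 turns retinal back to retinol and CYP26 enzymes oxidise retinoic acid for removal, so both lower its level. CRABP1 and CRABP2 bind retinoic acid in the cytosol, and the nuclear receptors RARA, RARB and RARG, paired with RXR partners, bind DNA at direct repeats of a short hexamer. Cyp26a1, Rarb and Dhrs3 are textbook genes that rise when retinoic acid is added to cells, which makes them both parts and readouts of the pathway.

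The promoters of Cyp26a1 and Rarb are shown because they were the only members with such a repeat close to a transcript start. The hexamer AGGTCA, its variant AGTTCA, and the forms GGGTCA as well as GGTTCA were searched on both strands as direct repeats with a spacer of 1, 2 or 5 bases. Windows ran from 250 bases before to 50 bases after each distinct start of a protein-coding transcript on NCBIM37. The 150 bases before the Cyp26a1 start (chr19:37772148-37772297, plus strand) and before the start of the shorter Rarb transcript (chr14:17407987-17408136, minus strand) follow, 5′ to 3′ in the direction of each gene, with the hexamers in capitals.
Cyp26a1: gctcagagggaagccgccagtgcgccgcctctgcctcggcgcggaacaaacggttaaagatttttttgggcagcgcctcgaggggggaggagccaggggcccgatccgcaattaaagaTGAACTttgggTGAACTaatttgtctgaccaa
Rarb: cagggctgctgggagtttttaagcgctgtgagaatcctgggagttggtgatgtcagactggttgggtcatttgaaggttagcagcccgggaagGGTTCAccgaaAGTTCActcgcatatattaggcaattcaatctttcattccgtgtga

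In Cyp26a1 the repeat lies on the opposite strand, where it reads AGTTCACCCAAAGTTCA, at bases -32 to -16 from the start. In Rarb it reads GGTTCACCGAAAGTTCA on the strand of the gene, at bases -57 to -41. Both have a spacer of 5 bases. A repeat with that spacer was present in 2 of 20 windows of the 9 members. It was present in 33 of 45983 windows of all protein-coding transcript starts (0.0718%), or in 24 of 22329 protein-coding genes (0.107%). Repeats with a spacer of 1 or 2 bases were in no member window and in 0.202% and 0.0848% of all windows. A match describes the letters only, and binding was not measured. Gene counts do not separate the shorter Rarb transcript from the longer one, which starts at position 17651381.

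Total gene counts were 19810855 in the sorted library and between 24532587 and 31453888 in the others. In the sorted library 29.7% of read pairs were unmapped, against 2.17% to 3.85% in the other 7, and 27.84% of unique pairs lay outside exons, against 7.83% to 13.21%. Marker genes were checked against the labels. In the mesoderm progenitors 6 primitive streak and nascent mesoderm markers summed to 1540 CPM on day 3 and 55.7 CPM on day 4. The mESC libraries had 3.78 to 21.2 CPM of these. The 6 later mesoderm markers summed to 230 and 970 CPM in mesoderm, against 12.4 to 58.4 CPM. Among the later markers, Tcf15 went the other way, at 0.678 to 1.46 CPM in mesoderm against 2.31 to 8.43 CPM. Meox1 overlapped, at 0.226 to 0.35 CPM against 0.0815 to 0.623 CPM. The sum of 6 pluripotency markers was 83.9 CPM in mesoderm on day 4 and 900 CPM on day 3, and lay between 2010 and 4070 CPM elsewhere. The sorted cells had 235 CPM of Cdx2, the gene behind the sort, and 2iJ+B-A had 15.0 to 30.1 CPM. These are bulk samples, in which fewer cells of a type and less RNA per cell cannot be told apart. All 9 members passed the filter on low counts, and 7 had at least 10 counts in every library. The exceptions were Cyp26a1 (6 counts in 2i, 8 in 2iJ) and Rarb (8 in 2i, 9 in mesoderm on day 3).

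**Figure D1:**
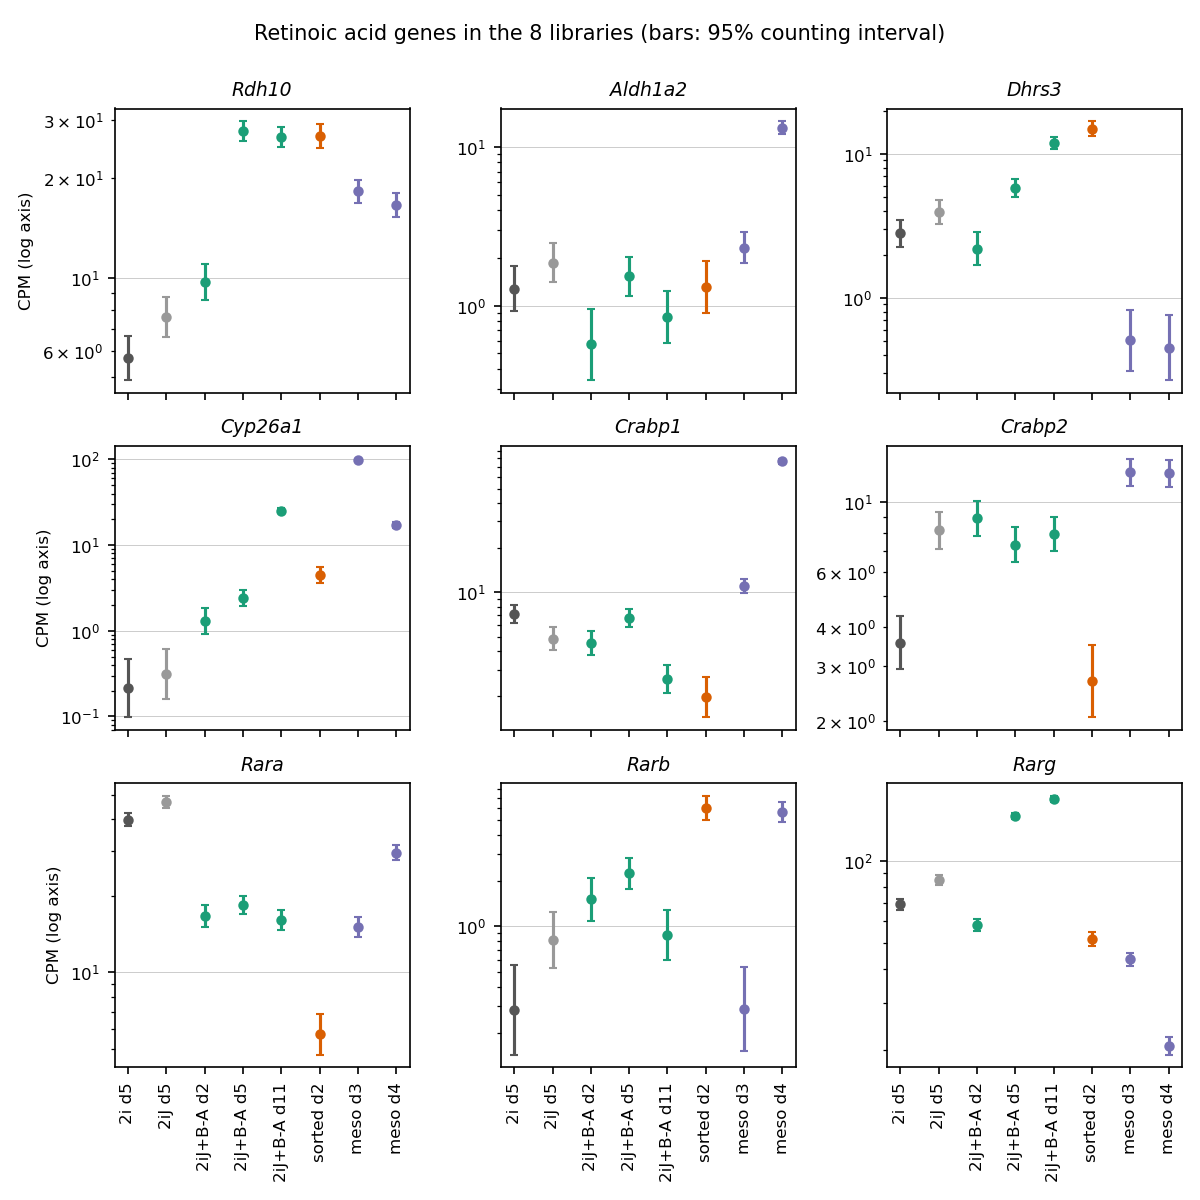
CPM of the 9 retinoic acid genes in each of the 8 libraries, 1 panel a gene, on log axes whose ranges differ between panels. Points are single libraries, coloured by group, and bars are 95% Wilson intervals for counting error. Cyp26a1 spans 0.213 to 98.7 CPM, and Dhrs3 is below 1 CPM only in the mesoderm progenitors.

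Rdh10 (retinol oxidation; chr1:16095855-16123815, plus strand) was at 5.72 CPM in 2i, 7.59 in 2iJ and 9.70 in 2iJ+B-A on day 2. It was at 27.8 CPM in 2iJ+B-A on day 5, 26.6 on day 11, 26.9 in the sorted cells, and 18.3 and 16.6 in mesoderm on days 3 and 4. The day 5, day 11 and sorted values had overlapping counting intervals (24.7 to 29.7 CPM in all), and so had the pair of mesoderm values. Aldh1a2 (retinal to retinoic acid; chr9:71063596-71144050, plus strand) was low in every mESC library, at 1.28 CPM in 2i, 1.87 in 2iJ, 0.571, 1.53 and 0.846 in 2iJ+B-A on days 2, 5 and 11, and 1.31 in the sorted cells. It was at 2.32 CPM in mesoderm on day 3 and at 13.2 on day 4. Only the day 4 value lay beyond the counting intervals of all other libraries: the day 3 interval (1.85 to 2.92 CPM) met that of 2iJ (1.41 to 2.48 CPM).

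Dhrs3 (retinal back to retinol; chr4:144482730-144518112, plus strand) was at 0.509 and 0.452 CPM in mesoderm on days 3 and 4, at 2.81 in 2i and at 3.97 in 2iJ. In 2iJ+B-A it was at 2.20, 5.79 and 11.9 CPM on days 2, 5 and 11, and in the sorted cells at 15.0. The mesoderm pair was below all 6 mESC libraries, with counting intervals that did not meet. Cyp26a1 (degradation of retinoic acid; chr19:37772298-37776018, plus strand) was at 98.7 and 17.2 CPM in mesoderm on days 3 and 4, and at 1.30, 2.42 and 25.2 in 2iJ+B-A on days 2, 5 and 11. It was at 4.49 CPM in the sorted cells, 0.213 in 2i and 0.311 in 2iJ. The day 11 cells thus lay between the mesoderm libraries, and 2i and 2iJ were lowest, with counting intervals that overlapped (0.0977 to 0.614 CPM in all).

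Of the cytosolic binding proteins, Crabp1 (chr9:54612555-54620917, plus strand) was at 11.1 and 76.3 CPM in mesoderm on days 3 and 4. In the mESC libraries it was at 7.11 CPM in 2i, 4.86 in 2iJ, 4.57, 6.71 and 2.60 in 2iJ+B-A on days 2, 5 and 11, and 1.97 in the sorted cells. Both mesoderm values were above every other library, and the 2iJ value did not differ from that of 2iJ+B-A on day 2 beyond counting error. Crabp2 (chr3:87752588-87757298, plus strand) had a narrower range, at 12.5 and 12.4 CPM in mesoderm, 8.13 in 2iJ, 8.89, 7.31 and 7.91 in 2iJ+B-A on days 2, 5 and 11, 3.55 in 2i and 2.68 in the sorted cells. The 2iJ and 2iJ+B-A values had overlapping intervals (6.43 to 10.1 CPM in all), and so had those of 2i and the sorted cells. Per kilobase of exon, the ratio of Crabp1 to Crabp2 levels was 10.2 in mesoderm on day 4 and lay between 0.543 and 3.30 in the other 7 libraries.

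Of the receptors, Rara (chr11:98789132-98836256, plus strand) was highest in 2iJ, at 46.7 CPM, and in 2i, at 39.9. It was at 16.7, 18.4 and 16.1 CPM in 2iJ+B-A on days 2, 5 and 11, 15.1 and 29.6 in mesoderm on days 3 and 4, and 5.70 in the sorted cells. The 2iJ+B-A values had overlapping counting intervals. A small nuclear RNA gene lies within Rara on the same strand, and no other member overlaps an annotated gene. Rarg (chr15:102065369-102087948, minus strand) was at 58.1, 147 and 170 CPM in 2iJ+B-A on days 2, 5 and 11, 69.2 in 2i, 85.4 in 2iJ, 51.5 in the sorted cells, and 43.4 and 20.8 in mesoderm on days 3 and 4. The mesoderm pair was lowest and the later 2iJ+B-A days highest. Rarb (chr14:17263356-17651381, minus strand) was the scarcest of the receptors in 7 of 8 libraries per kilobase, and in CPM stood at 5.65 in mesoderm on day 4 and 6.01 in the sorted cells. Elsewhere it was between 0.284 and 2.23 CPM, including 0.286 in mesoderm on day 3.

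The make-up of the receptor pool varied between the libraries. Per kilobase of exon, Rarg gave 65.7% of the summed receptor level in 2i, 66.5% in 2iJ, and 77.5%, 88.4% and 91.6% in 2iJ+B-A on days 2, 5 and 11. In mesoderm it gave 75.7% on day 3 and 38.2% on day 4, the only library in which Rara, at 48.8%, exceeded it. The ratio of Rarg to Rara levels was 11.7 in 2iJ+B-A on day 11, 10.0 in the sorted cells and 0.783 in mesoderm on day 4. Rarb reached 12.9% in mesoderm on day 4 and 11.7% in the sorted cells, and was between 0.336% and 2.51% in the other libraries. In the sorted cells Rarb exceeded Rara, at 1.82 against 1.25 CPM per kilobase.

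**Figure D2:**
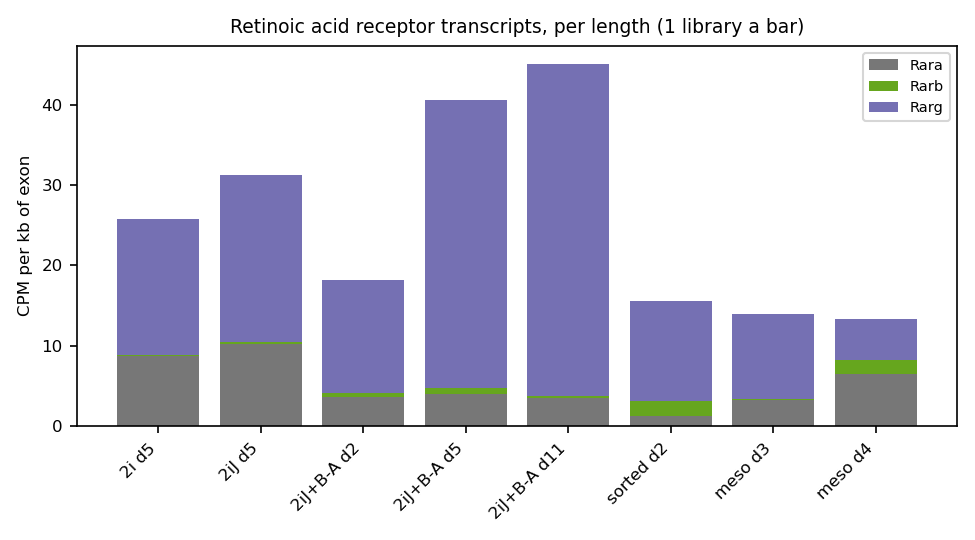
Level of the 3 retinoic acid receptors in CPM per kilobase of exon, stacked in 1 bar a library, with no replicate error. The summed level runs from 13.3 in mesoderm on day 4 to 45.1 in 2iJ+B-A on day 11, and Rarg fills most of each bar other than that of mesoderm on day 4.

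Mesoderm progenitors were compared with 2iJ+B-A cells to ask how the genes differ between a differentiated derivative and the perturbed pluripotent state, the only comparison with more than 1 library on both sides. Aldh1a2 and Crabp1 were higher in mesoderm, and Dhrs3 and Rarg were lower. Crabp1 differed by 3.26 on the log2 scale (SE 0.80, 43.7 ± 46.1 against 4.63 ± 2.05 CPM, SD, n = 2 and n = 3; edgeR adjusted p = 0.0289), and Aldh1a2 by 3.00 (SE 0.81, 7.75 ± 7.68 against 0.981 ± 0.492 CPM; edgeR adjusted p = 0.0383). Dhrs3 differed by -3.76 (SE 0.82, 0.480 ± 0.0399 against 6.64 ± 4.93 CPM; edgeR adjusted p = 0.0206). Rarg differed by -1.95 (SE 0.53, 32.1 ± 15.9 against 125 ± 59.0 CPM; edgeR adjusted p = 0.0386). Rdh10, the gene of the first synthetic step, differed by -0.27 (SE 0.46) and did not pass.

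In that comparison 4 of 9 members passed, 2 in each direction, where 27.0% of the 16961 genes tested passed (11.5% higher, 15.5% lower). The median log2 change was 0.64 over the members and -0.03 over all genes tested. Libraries of the groups did not overlap for 5 members, 3 higher (Aldh1a2, Crabp1 and Crabp2) and 2 lower, against 57.2% of all genes. Cyp26a1 overlapped between the groups, because the 2iJ+B-A day 11 value was above that of mesoderm on day 4 (log2 change 2.58, SE 1.30, adjusted p = 0.184). Crabp2 (0.64, SE 0.30), Rara (0.41, SE 0.32) and Rarb (0.97, SE 1.06) did not pass either.

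These calls rest on single libraries. Without mesoderm day 4, or without 2iJ+B-A day 5, none of the 9 members passed in edgeR. Aldh1a2 was then at 1.29 and 3.48, Crabp1 at 1.31 and 3.64, Dhrs3 at -3.65 and -3.83, and Rarg at -1.47 and -1.79. Without 2iJ+B-A day 2, only Dhrs3 and Rarg passed, and without day 11, only Dhrs3 and Cyp26a1 did, the latter at 5.00 (adjusted p = 0.0257). Without mesoderm day 3, Aldh1a2, Crabp1, Rarg and Rara passed, Rara at 0.87, and Dhrs3 did not (adjusted p = 0.0556). Other markers moved with this comparison as well: 5 endoderm markers summed to 102 and 238 CPM in mesoderm, almost all of it Gata4, against 7.38 to 121 CPM in 2iJ+B-A, and the streak, later mesoderm and pluripotency sums were given above. Their part in these differences was not tested.

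**Figure D3:**
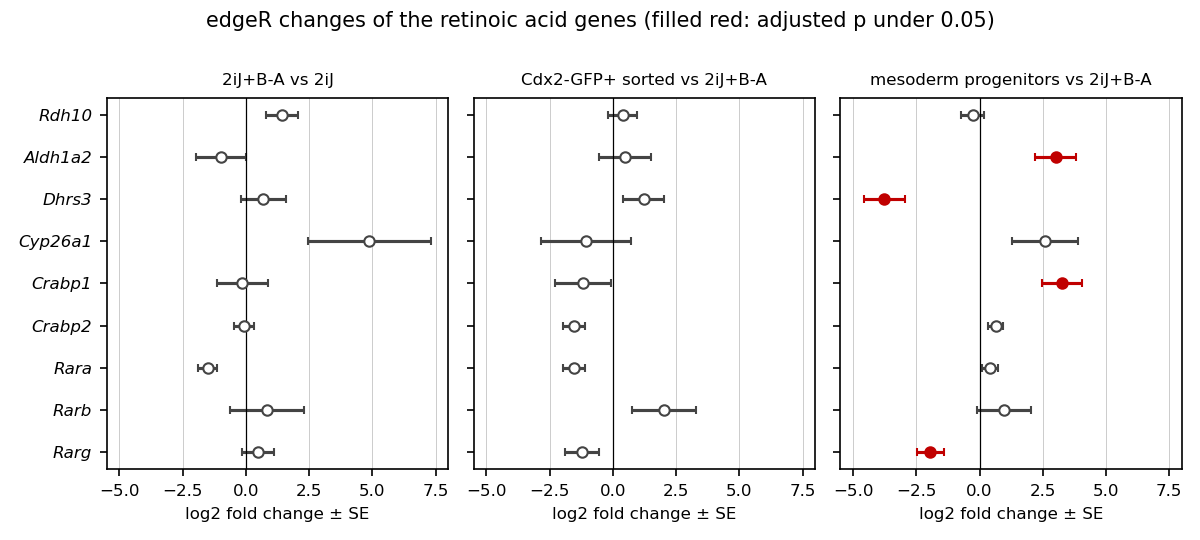
Log2 fold changes of the 9 members in edgeR, with standard errors as bars, for 2iJ+B-A against 2iJ (3 libraries against 1), sorted cells against 2iJ+B-A (1 against 3) and mesoderm progenitors against 2iJ+B-A (2 against 3). Filled red points have an adjusted p under 0.05, which holds for Aldh1a2, Dhrs3, Crabp1 and Rarg in mesoderm and for no member elsewhere.

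Of 36 further pathway genes (retinol carriers, dehydrogenases, other CYP26 enzymes, RXR partners and coregulators), 31 could be tested between mesoderm and 2iJ+B-A. Of these, 3 passed as higher and 7 as lower, with a median log2 change of -0.13. Over all 16961 genes tested, 27.0% passed (11.5% higher, 15.5% lower). Rxrg, an RXR partner receptor, was at 16.4 and 1.36 CPM in mesoderm on days 3 and 4 and at no more than 0.122 CPM (3 counts) in 2iJ+B-A (edgeR adjusted p = 0.015). Adh1, an alcohol dehydrogenase that can oxidise retinol, had 0 and 1 counts in mesoderm against 1.63, 2.26 and 3.22 CPM in 2iJ+B-A (adjusted p = 0.00249), and Adh4, a related enzyme, had 0 counts in both mesoderm libraries against 0.163 to 0.489 CPM (adjusted p = 0.0256). With 3 counts taken as the floor for a count of 0, these depths allow up to 0.095 and 0.097 CPM.

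Of 14 genes known to rise with retinoic acid in other systems, 2 passed as higher in mesoderm and 3 as lower, with a median of 0.22. Over all genes tested, 11.5% passed as higher and 15.5% as lower, with a median of -0.03. Hoxb1, an early Hox gene, was at 21.2 and 44.9 CPM in mesoderm on days 3 and 4 and at 0.163, 1.75 and 0.326 in 2iJ+B-A on days 2, 5 and 11 (log2 change 5.47, SE 0.97, adjusted p = 0.0111). Stra8, which licenses germ cells for meiosis, went the other way, with 0 and 2 counts in mesoderm against 170, 104 and 4.95 CPM in 2iJ+B-A (adjusted p = 0.0147). Tgm2, a transglutaminase, was at 1.14 and 2.71 CPM in mesoderm and at 14.8, 204 and 81.7 in 2iJ+B-A on days 2, 5 and 11 (log2 change -5.66, SE 1.23, adjusted p = 0.0201). Members of the list thus moved in both directions in the same comparison. Without a mesoderm library, the calls of Stra8, Adh4 and Tgm2 were lost (adjusted p between 0.0501 and 0.0646), and those of Adh4 and Rxrg were lost without 2iJ+B-A day 2 or day 5 (0.0515 to 0.0794).

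Within the mesoderm progenitors, several of the genes differed between day 3 and day 4, between which IWP-2 had been added. With 1 library a day there was no test, and the intervals below cover counting error only. Cyp26a1 was 5.74 times higher on day 3 (interval 5.24 to 6.31), and Rarg was 2.08 times higher (1.89 to 2.29). On day 4, Rarb was 19.8 times higher (10.2 to 43.9), Crabp1 6.90 times (6.16 to 7.74) and Aldh1a2 5.68 times (4.42 to 7.39). Cyp26b1, another enzyme that degrades retinoic acid and named after its values were seen, was 1.99 times higher on day 4 (1.42 to 2.83), the opposite direction to Cyp26a1. A ratio of at least 2 was reached by 5 of 9 members, 3 higher and 2 lower on day 4, where 24.0% of 15548 genes reached it. Rara was 1.96 times higher on day 4 (1.75 to 2.20). Rdh10, Crabp2 and Dhrs3 had ratios of day 4 to day 3 of 0.910, 0.988 and 0.889, each with an interval that included 1.0.

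The effect of BMP4 with ALK5 inhibitor was examined as 2iJ+B-A against 2iJ. Rara was lower in all 3 libraries of 2iJ+B-A than in 2iJ, and Cyp26a1, Rdh10 and Rarb were higher in all 3. Rara differed by -1.52 on the log2 scale (SE 0.38, 17.1 ± 1.23 CPM, SD, n = 3, against 46.7), Cyp26a1 by 4.88 (SE 2.43), Rdh10 by 1.42 (SE 0.63) and Rarb by 0.84 (SE 1.47). The Rarb level on day 11 was within counting error of 2iJ, at a ratio of 1.08 (0.586 to 2.0), on 27 against 21 counts. No member passed in edgeR, and the background was 0.0% of genes, with 1290 genes and 1 member, Rara, at an unadjusted p under 0.05 (Rara adjusted p = 0.443). DESeq2 called 309 genes and Rara among the members (adjusted p = 0.0395). Libraries did not overlap for 5 of 9 members, 3 higher and 2 lower (Rara and Aldh1a2), against 57.7% of all genes. The Aldh1a2 level on day 5 was within counting error of 2iJ, at a ratio of 0.817 (0.536 to 1.25), on 48 against 48 counts. The 2iJ group had a single library, which was assumed to vary like the others. Markers of other cell types moved with this comparison. The 6 trophectoderm markers summed to 108 CPM in 2iJ and to 507, 1200 and 613 CPM in 2iJ+B-A on days 2, 5 and 11. Most of the 2iJ+B-A sums came from Krt8 (198 to 594 CPM) and Krt18 (160 to 448 CPM). Tfap2c overlapped with 2iJ, and all but Elf5 were at 1 CPM or more, as in every library. The 5 endoderm markers summed to 6.15 CPM in 2iJ and to 7.38, 24.9 and 121 CPM, and Ttr had 0 counts in 2iJ. Their part in these differences was not tested.

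At the matched day 5, a ratio of the 2 libraries could be given with a counting interval. Rara was 2.53 times higher in 2iJ than in 2iJ+B-A (2.29 to 2.80). Cyp26a1 was 7.76 times higher in 2iJ+B-A (3.75 to 18.6), on 76 against 8 counts, Rdh10 3.67 times (3.14 to 4.30) and Rarb 2.72 times (1.65 to 4.67). Rarg was 1.72 times higher (1.64 to 1.81) and Dhrs3 1.46 times (1.14 to 1.88). Of the 36 other pathway genes and the 14 inducible genes, none passed in edgeR, and 2 and 3 had an unadjusted p under 0.05. Among all 16961 genes tested, 1290 did. The median log2 change was 0.31 over the tested pathway genes and 1.34 over the inducible genes, against 0.03 over all genes. Stra8 was at 23.8 CPM in 2iJ, above 2iJ+B-A on day 11 only, and Hoxb1 was at 0.856 CPM, below 2iJ+B-A on day 5 only.

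Over days 2, 5 and 11 in 2iJ+B-A, Cyp26a1, Dhrs3 and Rarg were higher on each later day, and Rdh10 was higher on days 5 and 11 than on day 2. Cyp26a1 was 19.3 times higher on day 11 than on day 2 (13.6 to 28.5), Dhrs3 5.43 times (4.07 to 7.36), Rarg 2.92 times (2.75 to 3.10) and Rdh10 2.74 times (2.37 to 3.18). Most of the Cyp26a1 difference lay between day 5, at 2.42 CPM, and day 11, at 25.2. Rara and Crabp2 had ratios of day 11 to day 2 of 0.965 (0.844 to 1.10) and 0.890 (0.738 to 1.07). Rarb was lower on day 11 than on day 2, at a ratio of 0.583 (0.341 to 0.983), in the opposite direction to Cyp26a1.

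**Figure D4:**
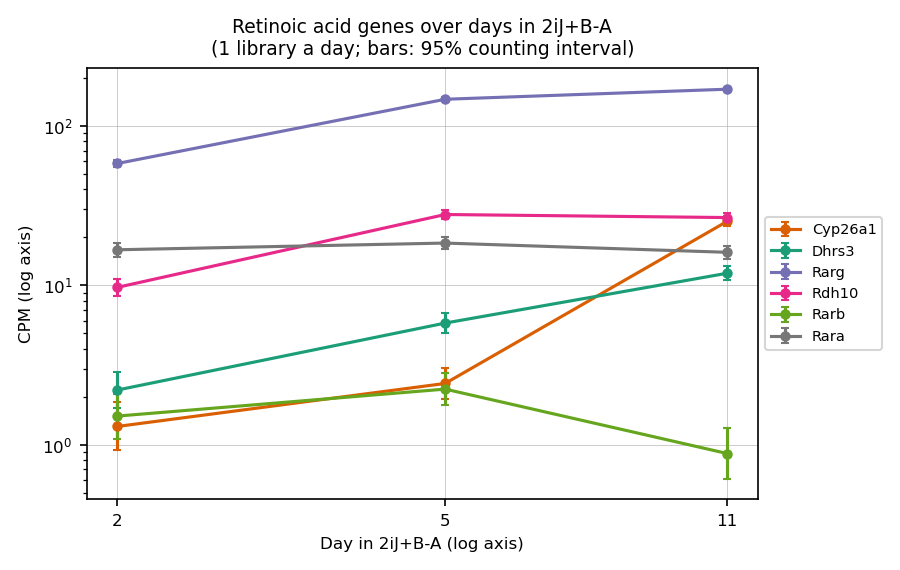
CPM of 6 members in 2iJ+B-A on days 2, 5 and 11, with both axes on log scales, 1 library a day and 95% counting intervals as bars. Cyp26a1 goes from 1.30 to 25.2 CPM and Dhrs3 from 2.20 to 11.9, while Rara stays between 16.1 and 18.4.

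A slope on log2(day) was fitted with 1 library a day. It was 1.75 log2 units per doubling of days for Cyp26a1 (SE 0.54), 0.98 for Dhrs3 (SE 0.22), 0.63 for Rarg (SE 0.24) and 0.60 for Rdh10 (SE 0.22). None of the 9 members passed in edgeR, with 0.0% of all genes called. At an unadjusted p under 0.05 there were 1004 genes, with these 4 members among them. DESeq2 called 115 genes and Cyp26a1 alone of the members (adjusted p = 0.048). Over the alternatives tried, the slope ranged from 1.73 to 1.8 for Cyp26a1, 0.96 to 0.99 for Dhrs3 and 0.62 to 0.64 for Rarg. Leaving out a mesoderm library takes the mesoderm day difference out of the error, so calls from those fits are not given as a test of the days.

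Other genes of retinoid uptake and storage also differed between these days, in both directions, and they are named here after their values were seen. Stra6, the membrane receptor for retinol-binding protein, was at 0.408, 3.37 and 10.1 CPM on days 2, 5 and 11. Rbp4, that carrier protein, was at 0.938, 0.795 and 6.61 CPM. Lrat, a gene of retinol storage, was lower on the later days, at 0.815, 0.0954 and 0.0651 CPM, on 20, 3 and 2 counts. Stra8 went from 170 CPM on day 2 and 104 on day 5 to 4.95 on day 11, 34.5 times lower than on day 2 (29.3 to 40.8). The slope passed for none of the 31 tested pathway genes and none of the 14 inducible genes in edgeR. At an unadjusted p under 0.05 there were 5 and 3 of them, and 1004 of all 16961 genes tested. Endoderm markers moved with the same days: the sum of 5 of them was 7.38, 24.9 and 121 CPM on days 2, 5 and 11, with 2, 4 and 4 of them at 1 CPM or more. The endoderm marker Ttr had 0 counts on day 2 and at most 4 later. Gata4 was at 5.18, 15.5 and 72.8 CPM, Sox17 at 1.06, 5.12 and 24.1, and Foxa2 at 0.448, 1.56 and 10.3. The sum of the 6 later mesoderm markers also rose, at 16.3, 38.7 and 58.4 CPM on days 2, 5 and 11. Of them, 4, 5 and 3 were at 1 CPM or more. The part of either marker set in the day differences of Cyp26a1, Dhrs3, Rarg and Rdh10 was not tested.

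Sorted Cdx2-GFP-positive cells were compared with unsorted 2iJ+B-A cells to ask how the fraction with an active trophectoderm gene differs. Rarb and Dhrs3 were above all 3 unsorted libraries, and Rara, Rarg, Crabp1 and Crabp2 were below all 3. The log2 changes were 2.02 for Rarb (SE 1.25), 1.22 for Dhrs3 (SE 0.80), -1.53 for Rara (SE 0.45), -1.22 for Rarg (SE 0.67), -1.18 for Crabp1 (SE 1.12) and -1.54 for Crabp2 (SE 0.43). No member passed in edgeR (Crabp2 adjusted p = 0.0836, Rara 0.0964). An unadjusted p under 0.05 was reached by 2 members and by 4586 of the 16961 genes tested. After adjustment 5.42% of genes passed (3.34% higher, 2.08% lower). The 919 genes behind that share became 37 without 2iJ+B-A day 5 and 2052 without mesoderm day 4. DESeq2 called both Crabp2 (adjusted p = 0.0056) and Rara (0.0128), and edgeR called Rara when either mesoderm library was left out of the fit (0.0253 and 0.0262). Libraries did not overlap for 6 of 9 members, 2 higher and 4 lower, against 75.1% of all genes.

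Against the unsorted library of the same day 2, the sorted cells had 6.81 times more Dhrs3 (5.08 to 9.28), 3.98 times more Rarb (2.73 to 5.93), 3.44 times more Cyp26a1 (2.28 to 5.33), 2.77 times more Rdh10 (2.37 to 3.24) and 2.30 times more Aldh1a2 (1.16 to 4.76). Crabp2 and Rara were 3.32 times (2.45 to 4.57) and 2.92 times (2.37 to 3.63) higher in the unsorted cells, Crabp1 2.32 times (1.60 to 3.43) and Rarg 1.13 times (1.04 to 1.22). Against all days together, Rdh10, Cyp26a1 and Aldh1a2 overlapped. Cyp26a1 changed direction with the day used, at -1.06 on the log2 scale against all days (SE 1.79) and at 1.33 without day 11. The size for Rarg also depended on the days, from -1.56 to -0.31 over the alternatives tried.

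The sorted group had 1 library, which the fit assumed to vary like the other groups, so the errors below come from those groups. Of the 31 tested pathway genes 3 passed as higher and 1 as lower, with a median log2 change of 0.03. Over all genes tested, 3.34% passed as higher and 2.08% as lower, with a median of -0.08. Adh1 was at 389 CPM in the sorted library and at 1.63, 2.26 and 3.22 CPM in 2iJ+B-A, a log2 change of 7.40 (SE 0.40, edgeR adjusted p = 0.00209). Adh7, an alcohol dehydrogenase with high activity on retinol, was at 26.3 CPM against 0.571, 0.668 and 1.04, a change of 5.15 (SE 0.60, adjusted p = 0.0145). Fabp5, a fatty acid binding protein that can carry retinoic acid, was at 188 CPM against 65.1, 33.2 and 32.1, a change of 2.16 (SE 0.41, adjusted p = 0.0412). Dhrs4, a retinal reductase, was at 10.0 CPM against 31.8, 37.1 and 35.2, a change of -1.74 (SE 0.28, adjusted p = 0.0297).

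Of these, Adh1 passed whichever 2iJ+B-A library was left out, Adh7 and Dhrs4 did not pass when any of the 3 was left out (adjusted p 0.0533 to 0.102 and 0.0732 to 0.130), and Fabp5 did not pass without day 5 or day 11 (0.143 and 0.106). None of the 14 inducible genes passed, with 6 at an unadjusted p under 0.05 and a median of -1.88. Of all 16961 genes tested, 4586 were under that unadjusted threshold, and the median was -0.08. Stra8 was at 0.909 CPM in the sorted cells, below all 3 unsorted libraries, and Hoxb1 at 0.202 CPM. The sorted library stood apart in its unmapped and non-exonic pairs. In it 4 fibroblast markers summed to 88.9 CPM, against 7.03 to 12.2 CPM in 2iJ+B-A. All 4 were at 1 CPM or more, as they also were in 2iJ+B-A on day 5. Thy1 differed least clearly, at 9.19 CPM against 3.83 to 5.28 CPM in 2iJ+B-A and 7.53 CPM in 2i. Col1a1 was at 42.1 CPM in the sorted library and at 0.618 to 3.15 CPM in 2iJ+B-A. The 6 trophectoderm markers summed to 3810 CPM against 507 to 1200, mostly from Krt8 (1730 CPM in the sorted library) and Krt18 (1590 CPM). The part of these in the differences was not tested.

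**Figure D5:**
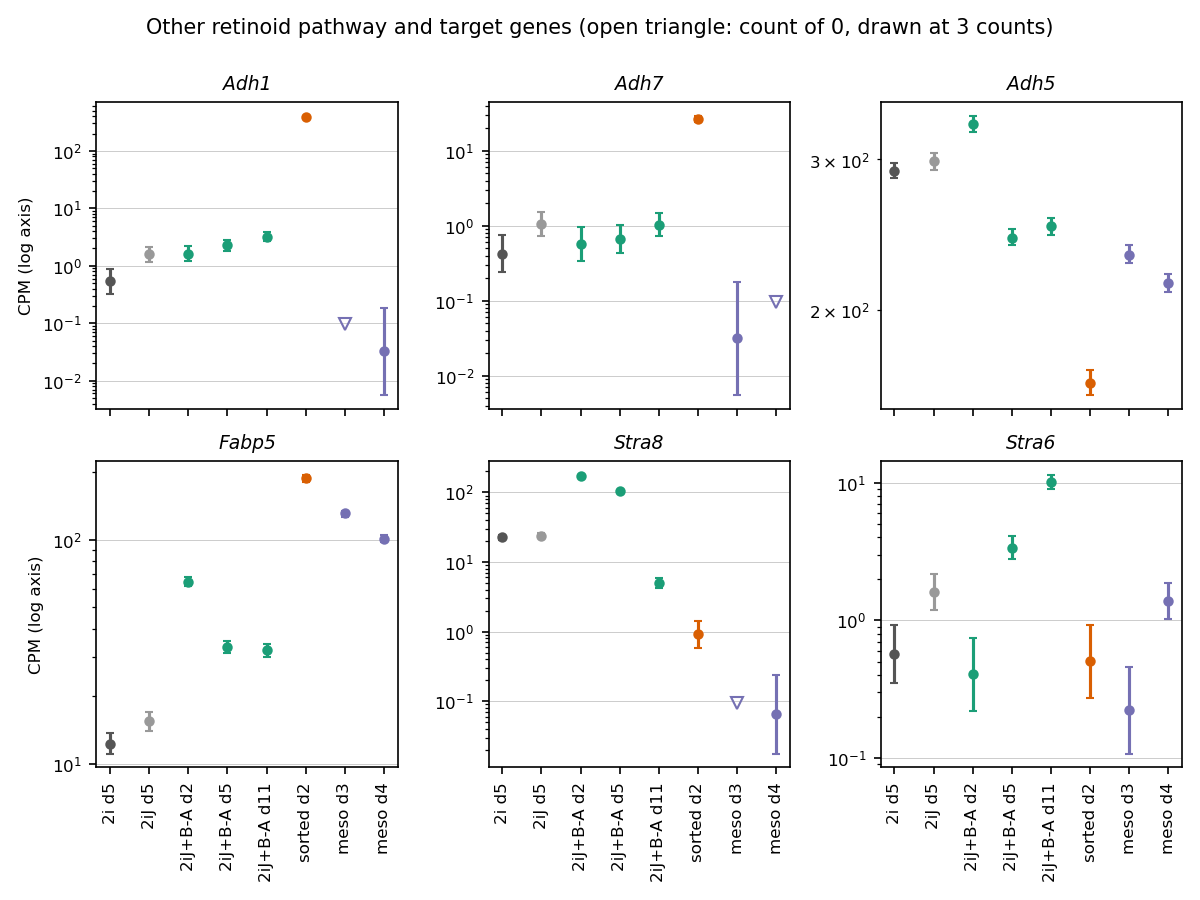
CPM of 6 further retinoid genes in the 8 libraries, on log axes whose ranges differ between panels, with 95% counting intervals as bars and open triangles at the level of 3 counts where a library had 0 counts. Adh1 stands at 389 CPM and Adh7 at 26.3 CPM in the sorted library, while Adh5, a broadly expressed relative, lies between 164 and 330 CPM throughout.

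The JAK inhibitor was examined as 2iJ against 2i on day 5, 1 library each and without a test. Crabp2 was 2.29 times higher in 2iJ (1.80 to 2.94), and Rarb 2.88 times (1.22 to 7.51), on 21 against 8 counts. These were the only members past a ratio of 2, 2 of the 8 with at least 10 counts in either library, where 7.72% of 15871 genes were. The other 6 members had ratios of 2iJ to 2i between 0.685 (Crabp1, 0.543 to 0.860) and 1.46 (Aldh1a2, 0.928 to 2.32). Cyp26a1 had 8 and 6 counts and was left out. Of the other pathway genes, 28 could be compared and 5 were higher and 1 lower in 2iJ past that ratio, and of the inducible genes 4 of 13 were higher and 2 lower. Hoxb1 had a ratio of 3.01 (1.29 to 7.83), on 22 against 8 counts, and Stra8 of 1.05 (0.940 to 1.18).

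The genes whose level followed 3 members most closely over the 8 libraries were found among 10623 protein-coding genes, as a description only, since the libraries share groups and depth. Cyp26a1 was followed by Sdccag3 (Pearson r = 0.97), Ccnd2 (0.96) and Ivd (0.96). Of these only Ccnd2, a G1 cyclin, had a like range, from 4.69 CPM in 2i to 241 in mesoderm on day 3. Rarb was followed by Vamp2 (0.97), Snx30 (0.96) and Haus5 (0.96), and Dhrs3 by Lmo7 (0.99), Epas1 (0.99) and Akr1b8 (0.98). Epas1, a hypoxia-responsive transcription factor, was at 7.89 and 10.9 CPM in mesoderm, 215 in the sorted cells and 232 in 2iJ+B-A on day 11, the libraries at either end of the Dhrs3 range. No member was among the 3 genes listed for each. Rarb and Aldh1a2 could not be listed for another member, because their mean levels were below the 5.0 CPM that the search required.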

How the data were processed

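The authors sequenced strand-specific poly-A libraries as read pairs, trimmed adapters and bases of low quality with cutadapt, aligned to NCBIM37 with STAR 2.4.2a, and deposited raw read counts per gene. ComBat, which the study used for experiments on separate days, was not applied to these counts. Reverse-strand counts were used here. Groups and days came from the labels. The 9 members and all gene lists were chosen with earlier results of these data known. CPM values are unscaled shares with Wilson intervals at 95.0%; intervals of ratios are exact, and all cover counting error only.

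The 16961 genes that reached 10 counts in 2 or more libraries were fitted in edgeR 4.0.16 (R 4.3.3; TMM scaling, a coefficient for each of 5 groups, 3 residual degrees of freedom, or 2 with the slope, biological coefficient of variation 0.363). P-values of its quasi-likelihood test were adjusted by Benjamini-Hochberg over all genes, with a threshold of 0.05. Standard errors are the log2 change over the square root of F. Of the other lists, up to 6 genes with an adjusted p under 0.05 were named per comparison by size of change, with Stra8 and Hoxb1 throughout; a further gene of that rule is not reported here. Genes of like pattern needed a mean of 5.0 CPM and were ranked by correlation of log2 CPM with a prior count of 2. Symbols from GENCODE vM1 covered 37205 of 37620 genes. Alternatives were DESeq2 1.42.0, RLE scaling, no filter, unstranded counts, fewer groups, other references and leaving out libraries.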

Additional observations from a re-analysis of the deposited data

How the results depend on the processing

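Between mesoderm progenitors and 2iJ+B-A, 4584 genes and 4 members passed; leaving out a library gave 2019 (without 2iJ+B-A day 5; 2666 without day 11) to 4538 genes and 0 to 4 members, and DESeq2, RLE scaling, no filter, unstranded counts, only the groups compared, and no sorted library (chosen after seeing the data) each gave 4 members. For 2iJ+B-A against 2iJ, edgeR called 0 genes and 0 members, also without any 2iJ+B-A library, DESeq2 309 and 1, and 2i pooled with 2iJ as the reference 150 genes and 0 members. For sorted cells against 2iJ+B-A, 919 genes and 0 members became 2665 and 2 in DESeq2, 1911 and 1 (Rara) with only the groups compared, 1390 genes with no filter and 27 at day 2 with the slope, and 37 to 2052 genes and 0 to 1 members with a library left out (37, 91 and 117 without 2iJ+B-A day 5, 2 and 11, and 1987 and 2052 without mesoderm day 3 and 4). The slope gave 0 genes, 115 and 1 member in DESeq2, 2 genes with no filter, and 379 to 469 genes and 3 members without a mesoderm library. The 1-library ratios past 2 stayed at 2 and 5 members with unstranded counts or TMM-scaled sizes. The causes were not tested.

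Among values of single genes under an alternative, 506 kept direction and side of the threshold, 19 gained the call, 35 lost it and 11 changed sign. None of the 11 had passed. With a library left out, mesoderm against 2iJ+B-A ranged from -0.13 (without mesoderm day 4) to 0.87 for Rara and from -2.36 (without mesoderm day 4) to 1.95 for Rarb. The sorted comparison ranged from -1.57 to 1.33 (without day 11) for Cyp26a1, which was at 2.20 at day 2 with the slope. Against 2iJ, the ranges were -1.82 to 0.19 for Hoxb1 (0.19 without day 2, 0.09 without day 11), -0.17 to 0.00 for Crabp2 (0.00 without day 5), -0.07 to 1.09 for Dhrs3 and -0.48 to 0.14 for Crabp1 (-0.07 and 0.14 without day 11), and with the pooled reference Hoxb1 was at 0.34 and Crabp2 at 0.39. No paired analysis was possible because the labels carry no replicate numbers. The floor of 3 counts lies between 0.095 and 0.151 CPM, and single libraries of 2i, 2iJ and sorted cells limit every comparison that uses them.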
